A study of Rattus norvegicus with 6 samples.

Results

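The 7 genes described here encode cell-surface receptors through which hormones and nutrients act on islet cells: Glp1r, Gipr, Gcgr, Ffar1, Ffar4, Ghsr and Prlr. They were taken by name out of the 32883 genes of the table, and they were followed in alpha, beta, PP and delta cells, together 4534 of the 75201 cells kept, and in acinar, ductal and immune cells, which are clusters named from marker lists. Single-cell libraries were made from the pancreas of 6 male Wistar rats, 1 library per rat and 2 rats per group. Young rats were aged 2 months and were taken before the diets were assigned. Old rats were aged 20 months and had eaten a normal diet for 18 months. HFHF-old rats were aged 20 months and had eaten a high-fat, high-fructose (HFHF) diet for 18 months. No genotype or transgene is given for any of them. The pancreas was digested with collagenase through the bile duct and passed over a density gradient, so the shares of cell types reflect the preparation.

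Glp1r, Gipr and Gcgr are class B receptors coupled to the stimulatory G protein and cyclic AMP. They bind the incretins GLP-1 and GIP, which gut cells release after a meal, and glucagon, the alpha cell hormone. Ffar1 and Ffar4 respond to long-chain fatty acids, Ghsr is the receptor of the stomach hormone ghrelin, and Prlr is a cytokine receptor that binds prolactin and placental lactogens and signals through Jak2 and Stat5.

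The libraries held 7617 to 17724 barcodes, with median depths of 2537 to 9391.5 UMIs per barcode (unique molecular identifiers, each standing for 1 captured RNA molecule). Endocrine cells were assigned to a class by their most abundant hormone: Gcg for alpha (1769 cells), Ins1 plus Ins2 for beta (1613), Ppy plus Pyy for PP (1098) and Sst for delta (54). Listing the rats as young, then old, then HFHF-old, replicate 1 before replicate 2, alpha cells numbered 606, 312, 116, 703, 29 and 3, beta cells 168, 92, 95, 1041, 214 and 3, and PP cells 148, 206, 58, 621, 64 and 1. HFHF-old replicate 2 therefore gave 7 islet cells and entered no test of islet cells, and the HFHF-old arm rests on 1 rat. Delta cells passed the minimum of 10 cells only in the young rats, with 25 and 11 cells. Levels are in CPM, the UMIs of a gene per 1000000 UMIs of all cells of a class in a rat. The alpha marker list summed to 220943 to 434542 CPM in alpha cells and the beta list to 562206 to 789292 in beta cells. The PP list summed to 289815 to 455196 in PP cells and the delta list to 154895 to 214636 in delta cells. Each list holds the hormone genes that set its class, so these sums follow from the assignment and are no separate evidence for it. Ptprc, the pan-leukocyte gene, lay between 7.08 and 103 CPM in the islet classes and the acinar list between 552 and 9025. The part of the acinar list in the results was not tested. Ptprc was not tested alone, but 1 alternative left out islet cells with a Ptprc UMI or with mixed hormones. It gave 22 receptor calls between islet classes in place of 19. Libraries shared 20 to 69 barcodes per pair, at most 0.604% of a library.

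Levels below are in CPM, and they compare classes or rats for 1 gene, not genes with each other. Hormone RNA took 56.2 to 79.6% of the UMIs of beta cells, against 22.4 to 45.4% in alpha, 29.6 to 47.1% in PP and 16.2 to 22.1% in delta cells, so the same CPM stands for more of the non-hormone RNA in beta cells. The tests scaled each sum by TMM, which centres the bulk of genes. Without those factors the median gene lay 1.16 lower on the log2 scale in beta than in alpha or PP cells, 1.44 higher in delta than in beta cells and 0.31 higher in delta than in alpha or PP cells. Median depth per cell was 10920 UMIs in alpha, 3868 in beta, 7450.5 in PP, 15215.5 in delta and 6120 in immune cells. Of the 1613 beta cells, 931 belonged to a shallow endocrine cluster with the lowest median depth of the endocrine clusters, which held 91 of 168 and 50 of 92 beta cells in the young rats, 29 of 95 and 747 of 1041 in the old rats and 12 of 214 in HFHF-old replicate 1.

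Glp1r, the GLP-1 receptor, was counted mainly in beta and delta cells. In beta cells it stood at 33.8 and 25.7 CPM in the young rats, 62.8 and 40.1 in the old rats and 70.5 in HFHF-old replicate 1. In alpha cells 14 UMIs were counted, at most 1.42 CPM in any rat, and PP cells gave 6 UMIs, all in old replicate 2. As a rough guide, free RNA from 1 source was assumed to keep its genes in 1 ratio. At each rat's ratio of receptor to hormone UMIs in the other islet classes, the hormone UMIs of those classes in alpha and PP cells correspond to 7.66 and 5.57 Glp1r UMIs. The assumption was not tested, and such values can exceed the count. In acinar cells of old replicate 1 the hormone UMIs correspond to 60.6 Glp1r UMIs, where 20 were counted. No rat's beta level came near any rat's alpha or PP level. Summed over the 5 rats, beta cells held 72.5 times the alpha level (95% counting interval 43.1 to 133) and 94.7 times the PP level (43.4 to 258), with the UMIs that other classes' hormones correspond to left in the alpha and PP levels. By edgeR with rat as a block, beta exceeded alpha cells by 7.11 on the log2 scale (SE 0.40, adjusted p = 3.03e-12) and PP cells by 7.57 (SE 0.45, adjusted p = 6.89e-12). With so few PP UMIs, the difference between beta and PP cells ran from 6.44 to 10.9 over 19 other ways of processing, and that between delta and PP cells from 5.03 to 9.66. The young delta cells stood at 21.5 and 85.8 CPM, from 7 and 13 UMIs, above alpha cells by 5.94 (SE 0.70, adjusted p = 2.55e-06) and above PP cells by 6.41 (SE 0.77, adjusted p = 3.83e-06). Between delta and beta cells the order was not settled, with a log2 difference of -1.17 (95% interval -2.22 to -0.11, adjusted p = 0.13) that became 0.71 without scaling factors.

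**Figure D1:**
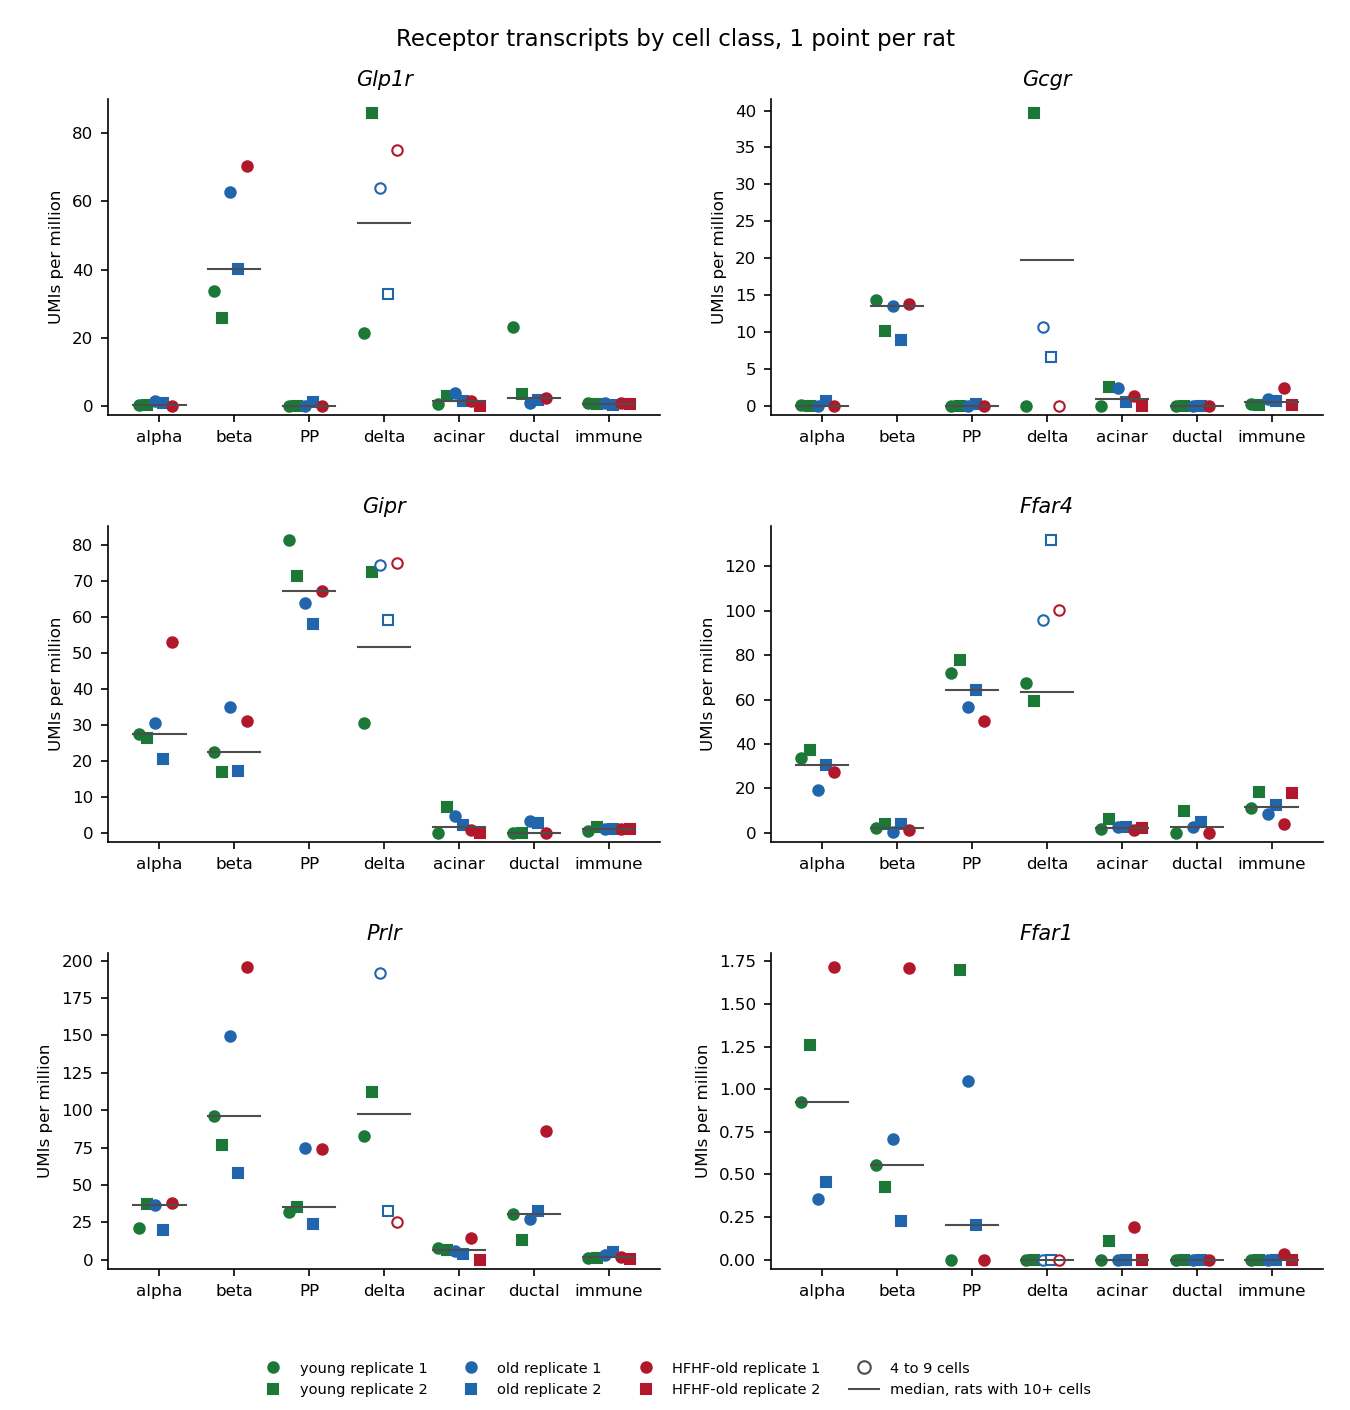
Levels of 6 receptors in 7 cell classes, in CPM on the vertical axes, with 1 point per rat (open points: 4 to 9 cells) and a line at the median of rats with at least 10 cells. Glp1r and Gcgr stand high in beta cells and near 0 in alpha and PP cells, Ffar4 shows the reverse with a low immune level, and Gipr and Prlr are present in all 4 islet classes.

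A Glp1r UMI was seen in 38.1% of beta cells (35.7 to 40.5%, exact binomial) and 38.9% of delta cells (25.9 to 53.1%), against 0.565% of alpha, 0.546% of PP and 0.411% of immune cells. All such intervals cover counting error only. The share over beta cells ran from 29.6% in old replicate 2 to 72.4% in HFHF-old replicate 1, the rats whose cells also differed in depth. After thinning each cell to 2000 UMIs, which kept 956 of 1613 beta and 34998 of 40354 immune cells, the shares were 9.90% in beta, 9.16% in delta, 0.172% in alpha and 0.125% in immune cells. The alpha and PP shares were thus close to that of immune cells. In the 5 rats with enough islet cells for such a ratio, the 133 Glp1r UMIs of immune cells exceeded the 46.9 that their hormone UMIs correspond to. The immune cells of HFHF-old replicate 2, which has no ratio, held 46 more and 0.267 hormone UMIs per cell. The HFHF-old beta share of 72.4% lay within the other rats' range once thinned, at 14.9% against 4.20 to 21.1%.

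Gcgr, whose ligand glucagon is made by alpha cells, was counted in beta cells and almost not in alpha cells themselves. Its beta levels were 14.4, 10.1, 13.5, 8.94 and 13.8 CPM in the young, old and HFHF-old rats in the order above, from 409 UMIs in all. Alpha cells gave 5 UMIs and PP cells 1, where the hormone UMIs of other classes correspond to 2.49 and 1.81. The beta level was 48.8 times that of alpha cells (95% counting interval 20.7 to 151) and 136 times that of PP cells (24.4 to 5404), with fitted log2 differences of 6.71 (SE 0.58, adjusted p = 1.95e-08) and 7.81 (SE 0.74, adjusted p = 6.21e-08). A Gcgr UMI was found in 18.5% of beta cells, 0.226% of alpha cells and 0.483% of immune cells, and in 2.35%, 0.0701% and 0.113% after thinning. Delta cells stood at 0 in young replicate 1 and 39.6 CPM in young replicate 2, where 5 of 11 cells gave 6 UMIs. The calls of delta over alpha (5.08) and over PP cells (6.17) rested on those 6 UMIs: without young replicate 2 the values were -3.17 and -2.14, and neither was called. No Gcgr UMI was seen in 823 ductal cells, of median depth 3393 UMIs, which allows a share of cells with a UMI of up to 0.365% and sets no limit on cells that express the gene.

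Gipr, the GIP receptor, was present in all 4 islet classes and higher in PP than in alpha cells. PP cells held 81.4, 71.6, 63.9, 58 and 67.2 CPM in the same order of rats. Alpha cells held 27.4, 26.5, 30.6, 20.5 and 53.2, all below every PP value. The difference was 1.22 on the log2 scale (SE 0.19, edgeR adjusted p = 0.000232), and it kept its call in each of the 19 other ways of processing. Beta cells stood at 22.4, 16.9, 34.9, 17.3 and 31.1 CPM, which overlaps the alpha range. Relative to non-hormone UMIs the beta levels became 79.2, 83.0, 125, 60.9 and 71.0 CPM and the alpha levels 35.3, 43.6, 54.3, 37.5 and 72.5. The PP levels became 116, 118, 95.1, 110 and 95.4, which old replicate 1 exceeded in its beta cells. The order of beta and alpha cells thus depended on the scale: edgeR gave beta higher by 0.87 (SE 0.19, adjusted p = 0.002) with TMM, and -0.31 (adjusted p = 0.165) with total UMIs alone. The call with TMM was also lost with islet cells taken by hormone share (adjusted p = 0.201). Beta and PP cells did not pass the test with TMM, at -0.35 (95% interval -0.75 to 0.05, adjusted p = 0.179), and did with total UMIs alone, at -1.55 (adjusted p = 1.39e-07).

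The young delta cells had Gipr at 30.7 and 72.6 CPM, a spread as wide as that between alpha and PP cells. They did not pass the test against alpha (0.22, 95% interval -0.56 to 1.01, adjusted p = 0.769), beta (-0.65, -1.41 to 0.12, adjusted p = 0.262) or PP cells (-0.997, -1.75 to -0.24, adjusted p = 0.0868). With total UMIs alone the difference from beta cells became 1.04 (adjusted p = 0.0399).

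A UMI of Gipr was seen in 36.6% of PP, 37.0% of delta, 26.6% of beta and 22% of alpha cells, against 0.701% of immune cells. Over rats, whose cells differed in depth, these shares ran from 24.96 to 56.2% in PP, 16.2 to 61.1% in beta and 13.4 to 69.0% in alpha cells. In HFHF-old replicate 1 the alpha (69.0%) and beta shares (57.5%) exceeded the PP share. Thinned shares were 13.0%, 10.2%, 5.31%, 5.28% and 0.198% in PP, delta, beta, alpha and immune cells. By rat they spanned 11.2 to 14.98% in PP, 2.85 to 18.5% in beta and 4.22 to 11.4% in alpha cells, all above the 0.121 to 0.330% of immune cells. In the 5 rats with a ratio, the 195 Gipr UMIs of immune cells themselves exceeded the 43.7 that their hormone UMIs correspond to.

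**Figure D2:**
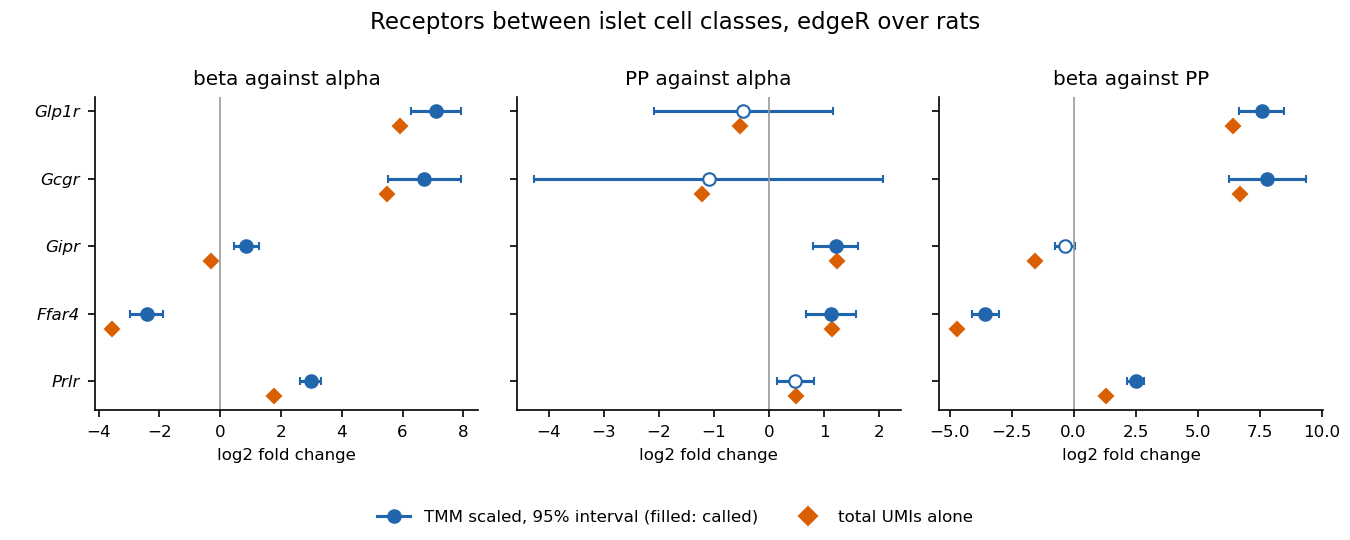
Fitted log2 differences among alpha, beta and PP cells for the 5 receptors that passed the filter on low counts, with 95% intervals, on the horizontal axis in log2 units, for TMM and for total UMIs alone. Glp1r, Gcgr and Prlr are higher and Ffar4 lower in beta than in alpha and PP cells on both scales, while the sign for Gipr in beta against alpha cells changes.

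Counting each receptor in each of the 6 pairs of islet classes, 5 receptors were tested and Ffar1 and Ghsr were not, having too few UMIs. Between beta and alpha cells 5 of 5 were called (adjusted p under 0.05 and a difference over 1.5-fold), against 23.3% of 12854 genes, and between beta and PP cells 4 of 5 against 22.8%. With total UMIs alone these became 4 of 5 and 5 of 5, each against 81.6% of genes. Between PP and alpha cells 2 of 5 were called against 11% of genes, between delta and alpha 3 of 5 against 11.3%, between delta and beta 2 of 5 against 14.7% (2 of 5 against 51.8% with total UMIs alone) and between delta and PP 3 of 5 against 10.5%. Of these 19 calls, 11 were kept in every one of the 19 alternatives. Glp1r and Gcgr had 14 and 5 UMIs in alpha and 6 and 1 in PP cells, and passed the filter on low counts through their beta and delta levels. That favours calls of beta or delta against these classes and leaves little to call between PP and alpha cells. The receptors were also chosen with earlier results of these data known. The counts therefore describe the receptors and do not test them as a set.

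Of the fatty acid receptors, Ffar4 was carried by PP, delta and alpha cells and Ffar1 was barely counted. Ffar4 stood at 71.8, 77.8, 56.6, 64.3 and 50.2 CPM in PP cells. Its alpha levels were 33.6, 37.5, 19.2, 30.3 and 27.4, below every PP value. PP exceeded alpha cells by 1.13 on the log2 scale (SE 0.22, edgeR adjusted p = 0.00128), a call that was lost without the block for rat, with islet cells taken by hormone share and without the filter on the most complex barcodes, with adjusted p of up to 0.241. In beta cells the receptor was at 0.472 to 4.07 CPM, under every alpha value (log2 difference -2.42, SE 0.26, adjusted p = 8.45e-07) and every PP value (-3.55, SE 0.25, adjusted p = 7.59e-09). The young delta cells held 67.5 and 59.4 CPM, above beta cells by 2.87 (SE 0.42, adjusted p = 0.000122, and not called with islet cells taken by hormone share, adjusted p = 0.117), and did not pass the test against alpha (0.45, 95% interval -0.34 to 1.24, adjusted p = 0.506) or PP cells (-0.68, -1.46 to 0.10, adjusted p = 0.281).

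An Ffar4 UMI was present in 59.3% of delta, 36.2% of PP and 26.2% of alpha cells but in 3.72% of beta cells, below the 6.88% of immune cells. After thinning these were 16.0%, 11.6%, 6.44%, 0.874% and 2.18%. The beta share lay under the immune share of the same rat in 4 of 5 rats, before and after thinning. Young replicate 2 was the exception, with 14.1% against 8.04% as counted and 4.46% against 2.75% thinned. Thinning draws from all UMIs, of which hormone RNA took 56.2 to 79.6% in beta cells and at most 0.825% in immune cells. Per non-hormone UMIs the ranges over rats overlapped, at 1.69 to 18.9 CPM in beta and 4.16 to 18.5 in immune cells. Of the 107 Ffar4 UMIs of beta cells, 42.0 correspond to the hormone UMIs of other islet classes in those cells, 32.2 of them in old replicate 2, which held 71.

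Ffar1, the other long-chain fatty acid receptor, gave 56 UMIs in all kept cells, of which 49 (87.5%) lay in islet classes. Beta cells held 23 UMIs, of which 12 came from HFHF-old replicate 1, alpha cells 18, PP cells 8 and delta cells none among 54 cells, which allows a share of cells with a UMI of up to 5.56%. In alpha cells the level was 0.924, 1.26, 0.356, 0.455 and 1.71 CPM by rat, and in beta cells 0.553, 0.429, 0.708, 0.229 and 1.71, so the classes overlapped. With 2 UMIs in 40354 immune cells, the alpha level was 120 times (95% counting interval 28.6 to 1063) and the beta level 91.1 times (22.5 to 797) that of immune cells. Both immune UMIs came from HFHF-old replicate 1. Without that rat immune cells held none. Against a floor of 3 counts over the rats left, the alpha level stood 60.4-fold and the beta level 28.0-fold higher. These values leave out the counting error of the 17 alpha and 11 beta UMIs, so they are no lower limits. At this depth differences among islet classes or rat groups were not detectable.

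Ghsr, the ghrelin receptor, gave 8 UMIs in the whole series after filtering. Delta cells held 3 of them, 1 in young replicate 1 and 2 in old replicate 2, in 5.56% of 54 cells (exact binomial 1.16 to 15.4%). Fibroblast-like clusters held 3, alpha cells 1 and immune cells 1. No UMI was seen in 1613 beta cells or 1098 PP cells, which allows shares of cells with a UMI of up to 0.186% and 0.273%, not of cells that express the gene. These counts are too few for a test.

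Prlr, the prolactin receptor, was higher in beta than in alpha or PP cells and was counted in every islet class. Beta levels were 96.0, 76.6, 150, 58.3 and 195 CPM in the young, old and HFHF-old rats in order. Alpha cells held 21.2, 37.3, 36.7, 20.1 and 37.7 and PP cells 32.2, 35.1, 74.4, 23.8 and 74.4. Every beta value exceeded that of alpha and PP cells of the same rat, although the PP values of old replicate 1 and HFHF-old replicate 1 passed the beta value of old replicate 2. Beta was above alpha cells by 2.98 on the log2 scale (SE 0.16, edgeR adjusted p = 2.33e-10) and above PP cells by 2.5 (SE 0.16, adjusted p = 2.14e-09). With total UMIs alone these were 1.78 and 1.29, both still called. PP and alpha cells did not pass the threshold, at 0.48 (95% interval 0.14 to 0.82, adjusted p = 0.0558), but did without young replicate 2 (0.64, adjusted p = 0.0272).

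Delta cells of the young rats held Prlr at 82.8 and 112 CPM. They exceeded alpha cells by 1.36 (SE 0.26, adjusted p = 0.00199), a call lost by hormone share (1.29, adjusted p = 0.468) and without the block for rat (1.14, adjusted p = 0.131). They exceeded PP cells by 0.88 (SE 0.26, adjusted p = 0.0394), and lay under beta cells (-1.62, SE 0.26, adjusted p = 0.00029) with TMM but not with total UMIs alone, where the difference was 0.10. The call under beta cells was also lost by hormone share. The call over PP cells was lost in 10 of 19 alternatives, among them without young replicate 1 (0.79, adjusted p = 0.189), young replicate 2 (0.86, adjusted p = 0.173) or old replicate 1 (0.90, adjusted p = 0.0509). A Prlr UMI was present in 44.8% of beta, 44.4% of delta, 22.6% of PP and 18.3% of alpha cells, and in 18.3%, 14.2%, 6.52% and 4.27% after thinning, against 0.85% and 0.287% in immune cells.

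Outside the islet, the receptors differed in how far their UMIs were confined to islet cells. Islet classes held 80.4% of the 2192 Glp1r UMIs, 75.8% of the 2998 Gipr, 56.4% of the 8609 Prlr, 50.7% of the 835 Gcgr and 28.0% of the 6084 Ffar4 UMIs. Before the barcode filters there were 3474, 4056, 12346, 1161 and 6516 UMIs, and of the barcodes left out for their gene number 521 came from HFHF-old replicate 1 and 22 to 98 from each of the other rats. In sums per rat over all islet cells, all 5 tested receptors were called higher than in acinar, ductal and immune cells. Of 15644 genes, 54.8% were called against acinar, 44.4% against ductal and 61.3% against immune cells, in both directions together. Called higher in islet cells were 4609, 3712 and 4805 genes in that order. The receptors were chosen with earlier results of these data known, so this describes them and does not test them as a set. The islet sums join classes that differ: per total UMIs Ffar4 had a median of 2.21 CPM in beta and 11.8 in immune cells. Fibroblast-like and smooth muscle-like clusters were not tested. Prlr had a median of 27.0 CPM in fibroblast-like clusters (8.92 to 36.6 by rat), beside 20.1 to 37.7 in alpha cells. Against immune cells the differences of the islet sums ranged from 1.87 for Ffar4 (SE 0.24, edgeR adjusted p = 5.16e-07) to 6.26 for Glp1r (SE 0.62, adjusted p = 1.03e-08). Against acinar cells they ranged from 1.41 for Gcgr (SE 0.51, adjusted p = 0.0251) to 3.11 for Gipr (SE 0.39, adjusted p = 3.62e-07). The Gcgr call was lost in 5 of 19 alternatives, among them without young replicate 1 (1.24, adjusted p = 0.0619), old replicate 2 (1.24, adjusted p = 0.0839) or HFHF-old replicate 1 (1.05, adjusted p = 0.0817). Against ductal cells Prlr differed least, by 2.31 (SE 0.39, edgeR adjusted p = 4.38e-05). Gcgr had no ductal UMI, and its beta level stood 18.6-fold above a floor of 3 counts over all rats. That value leaves out the counting error of the beta UMIs. With total UMIs alone all 15 calls were kept but the sizes moved. Prlr against ductal cells was then 1.08 (adjusted p = 0.0101), Glp1r against ductal cells 2.21 in place of 3.47 and Ffar4 against immune cells 1.05. Against acinar cells Gcgr rose to 2.02.

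The Ffar4 UMIs of immune cells outnumbered those that the hormone UMIs in the same cells correspond to. In the 5 rats with a ratio of receptor to hormone UMIs, the hormone UMIs of immune cells correspond to 23.5 Ffar4 UMIs and the count was 1867. HFHF-old replicate 2, with no ratio, held 1649 more. Other free RNA and doublets were not tested. By rat, immune cells held 11.1, 18.4, 8.65, 12.6, 4.15 and 17.8 CPM. Among the immune clusters, dendritic-like cells stood at 29.1 CPM over all rats (16.5 to 44.8 by rat) and 3 NK-like clusters at 24.6 (7.50 to 28.6), 21.8 (13.1 to 32.0) and 17.3 (16.5 to 18.2). T-like cells stood at 14.0 (4.28 to 53.9), a cluster with the B cell gene Cd79b and the plasma cell genes Jchain and Mzb1 at 9.86 (3.87 to 18.95) and mast-like cells at 9.85 (0 to 19.0). The order differed between rats: in the young rats T-like cells (32.3 and 53.9) lay above dendritic-like cells (29.3 and 36.1), and in old replicate 1 an NK-like cluster (26.4) lay above them (16.5). HFHF-old replicate 2 gave 93.5% and 64.1% of the cells of 2 NK-like clusters. Low levels were found in 2 macrophage-like clusters (0.443 and 1.08), in an immune cluster led by the mast cell genes Cma1 and Mcpt1l1 (1.71) and in one led by S100a9 and Lyz2 (1.69), where no rat passed 3.43 CPM. Every rat's value in the dendritic-like, NK-like, T-like and Cd79b clusters lay above that, and the mast-like values spanned it.

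**Figure D3:**
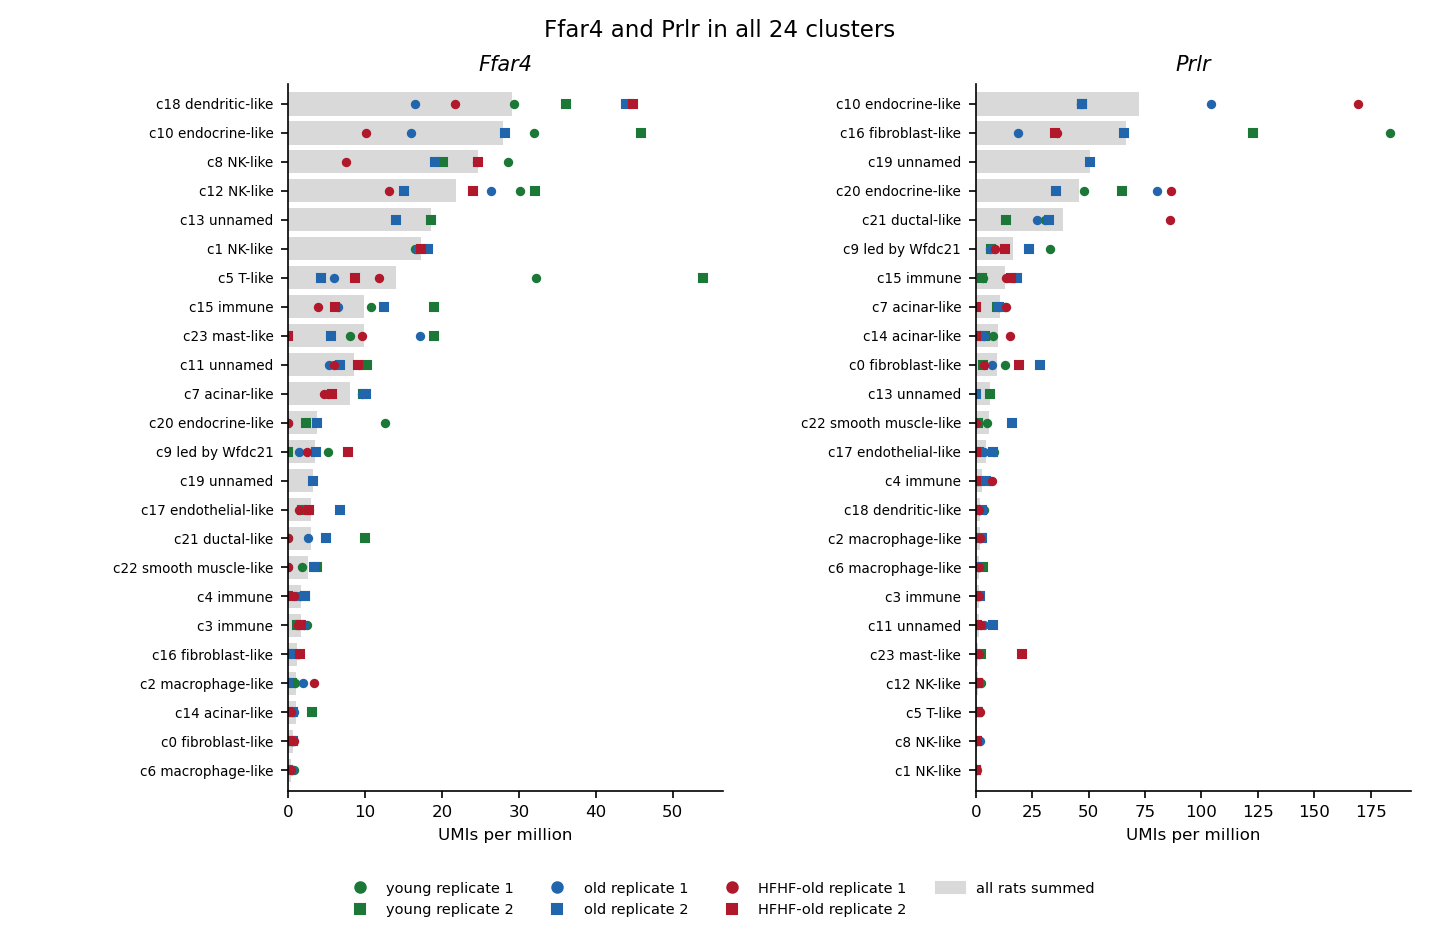
Ffar4 (left) and Prlr (right) in the 24 clusters, in CPM on the horizontal axes, with bars for all rats summed and points for single rats with at least 10 cells in the cluster. Ffar4 stands highest in the dendritic-like cluster, 1 of the 2 endocrine clusters, the NK-like clusters and 1 unnamed cluster, and Prlr in endocrine and ductal-like clusters, 1 fibroblast-like and 1 unnamed cluster.

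Ductal cells held Prlr at 30.8, 13.3, 27.3, 32.6 and 86.2 CPM in the 5 rats with enough cells, from 196 UMIs where the hormone UMIs correspond to 8.71. A UMI was seen in 9.23% of ductal cells and 5.85% after thinning. Of the 28 ductal Glp1r UMIs, 21 came from young replicate 1, where only 2.15% of 93 ductal cells had a Glp1r UMI. Whether those few cells are doublets was not tested. In acinar cells the counts of Glp1r (71) and Gipr (108) compare with the 115 and 99.8 that their hormone UMIs correspond to, whereas Gcgr (57 against 30.6) and Ffar4 (96 against 45.3) lay above, in the same 5 rats. The acinar Prlr count of 339 against 329 joined rats that went opposite ways, with 226 against 50.2 in HFHF-old replicate 1 and 15 against 0.798 in young replicate 1, but 31 against 150 in old replicate 1 and 60 against 124 in young replicate 2. Gcgr in immune cells (222 UMIs against 11.1) came mainly from 1 macrophage-like cluster, which held 157 UMIs. Its level there was 4.06 and 2.93 CPM in the old rats, 4.34 in HFHF-old replicate 1, which gave 55.4% of the cluster's cells, and 0 in both young rats. The other macrophage-like cluster held 5.75 and 2.27 CPM in the old rats, 2.86 in HFHF-old replicate 1 and 0 in both young rats, from 6, 4 and 5 UMIs. A smooth muscle-like cluster of 752 cells held 22 Gcgr UMIs. Its median level was 10.3 CPM over 5 rats (0.469 to 15.2) with 15 to 297 cells each, so the level of a single rat rests on few UMIs. In old replicate 2 hormone RNA took 15.3% of the UMIs of its 273 smooth muscle-like cells. How many Gcgr UMIs this hormone RNA corresponds to was not worked out.

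The receptors were also counted together in single cells. Of the 1613 beta cells, 614 had a Glp1r UMI, 429 a Gipr UMI and 344 both. Prlr was seen in 722, with Glp1r in 528 of them, and Gcgr in 298, with Glp1r in 247. In PP cells 402 had Gipr, 397 Ffar4 and 257 both. In alpha cells Gipr was found in 390, Ffar4 in 464 and both in 162 of 1769 cells. These counts are a description: UMIs of both genes rise with the depth of a cell, and cells of 1 rat share a library.

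Across the 17 sums of islet cells per rat and class, each receptor had its own companions among 9684 genes, by Pearson correlation of log2(CPM + 1). Glp1r was closest to Fam163b (0.94), AABR07010777.1 (0.94) and Slc2a2 (0.93), the glucose transporter GLUT2. Gcgr was closest to Kcnk2 (0.92), a potassium channel, Trh (0.88), the precursor of thyrotropin-releasing hormone, and Mdh1 (0.88), a malate dehydrogenase. Gipr was closest to Lgals3bp (0.90), Rimbp2 (0.89) and Slc35d2 (0.88), Ffar4 to Hist3h2ba (0.98), Klc3 (0.97) and Gstp1 (0.97), and Prlr to Cabp1 (0.89), Spock1 (0.85) and Myh10 (0.84). The sums share rats and hormone content, so these values carry no test.

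Other receptors of islet cells also differed between the classes. The lists in this and the next paragraphs were chosen with earlier results of these data known. Some of their genes passed the filter on low counts through the class where they are high. The counts over each list therefore describe it and do not test it as a set. From a list of 39, 28 passed the filter, of which 8 were higher and 8 lower in beta than alpha cells (57.1% called, median log2 difference -0.08, against 23.3% and -0.00 over all genes). With total UMIs alone 6 were higher and 17 lower (82.1% called, near the 81.6% of all genes). Cckar, the cholecystokinin receptor, had 228 UMIs in beta cells, 1 in PP cells and none in alpha cells. Avpr1b, a vasopressin receptor, had 364 UMIs in alpha cells and 7 in beta cells (log2 difference -5.55, SE 0.44, edgeR adjusted p = 1.08e-10), and 3 in PP cells. Oxtr, the oxytocin receptor, was lower in PP than alpha cells (-4.24, SE 0.41, adjusted p = 5.06e-08), where 3 receptors of the list were higher and 9 lower (42.9% called, median -0.51, against 11% and 0.01 over all genes). P2ry1, a purinergic receptor, was higher in beta than PP cells by 6.19 (SE 0.54, adjusted p = 4.32e-09), with 11 higher and 7 lower (64.3% called, against 22.8% of all genes), or 5 and 12 with total UMIs alone (60.7% against 81.6%). In delta against alpha cells 5 were higher and 4 lower (32.1% against 11.3%), or 5 and 2 with total UMIs alone (25% against 8.71%), among them Chrm4, a muscarinic receptor, by 6.65 (SE 0.82, adjusted p = 2.93e-06), and Gpr119, which had 380 UMIs in alpha and none in delta cells. The Chrm4 difference rested on 16 UMIs in the delta cells of 2 young rats.

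Among 32 tested gene identifiers of G proteins, cyclic AMP and calcium signalling, 4 were higher and 8 lower in beta than alpha cells (37.5% called, median log2 difference -0.31, against 23.3% and -0.00 over all genes), or 1 and 27 with total UMIs alone (87.5% against 81.6%). Adcy8, an adenylyl cyclase, was higher in beta cells by 4.44 (SE 0.50, adjusted p = 1.48e-06), and in young delta cells, from 16 UMIs, by 5.56 over alpha cells (SE 0.89, adjusted p = 0.000329). Pde4d, which degrades cyclic AMP, was lower in beta cells (-2.0, SE 0.17, adjusted p = 8.17e-08). Gnas, the stimulatory G protein subunit through which Glp1r, Gipr and Gcgr signal, occurs under 2 gene identifiers, whose reads may be split between them, and both were lower in PP than alpha cells (-3.62 and -2.19, adjusted p = 8.86e-08 and 4.72e-08). In that comparison 1 identifier was higher and 6 lower, both of Gnas among them (21.9% called, against 11% of all genes). In beta against PP cells 6 were higher and 4 lower (31.2% against 22.8%), or 2 and 23 with total UMIs alone (78.1% against 81.6%).

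Of the 10 genes of prolactin signalling, 8 were tested between islet classes. In beta against alpha cells none was higher and 2 were lower (25% called, near the 23.3% of all genes), the feedback inhibitors Socs3 (-1.86, SE 0.44, adjusted p = 0.00267) and Cish (-1.18, SE 0.35, adjusted p = 0.0136). With total UMIs alone 7 of 8 were lower in beta than in alpha cells and 7 of 8 in beta than in PP cells (87.5% called in each, against 81.6% of all genes). In beta against PP cells, where 37.5% were called against 22.8% of all genes, Stat5a, a transcription factor downstream of Prlr, differed by 1.08 with TMM (SE 0.35, adjusted p = 0.0232). Its median level was 2.57 CPM in beta and 3.39 in PP cells, and with total UMIs alone the difference was -0.053 (adjusted p = 0.898). Socs3 was 1 of 2 that were lower (-1.41, SE 0.47, adjusted p = 0.0293). Socs2, with 4 UMIs in delta cells, was lower there than in alpha cells with TMM (-1.74, SE 0.50, adjusted p = 0.0292), a call lost with total UMIs alone (-1.32, adjusted p = 0.264). Of the 7 ligands and processing genes, 2 passed the filter, Dpp4, the protease that inactivates incretins, and Ghrl, which encodes ghrelin. Dpp4 was lower in PP than alpha cells (-1.05, SE 0.34, adjusted p = 0.0441). Ghrl reached 307 CPM in the beta cells of old replicate 2, with a median of 0.277 over rats, and PP cells held 3 UMIs.

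Against the other classes, 17 of 31 tested islet receptors were higher and 6 lower in islet than acinar cells (74.2% called, against 54.8% of all genes), 19 and 6 against ductal cells (80.6% against 44.4%) and 20 and 7 against immune cells (87.1% against 61.3%). With total UMIs alone these were 20 and 3 (74.2% against 66.9%), 14 and 7 (67.7% against 71.1%), and 20 and 9 (93.5% against 73.7%). The list was chosen as receptors of islet cells, and some passed the filter through islet cells, such as Avpr1b with 364 UMIs in alpha and 1 in acinar cells. That favours calls of islet cells as higher, so these counts are a description. Sstr2, a somatostatin receptor, was among those above immune cells (7.96, SE 0.50, edgeR adjusted p = 3.55e-13). Of 33 tested gene identifiers of the G protein, cyclic AMP and calcium list, with Gnas under 2, 15 were higher and 9 lower than in immune cells (72.7% called, against 61.3% of all genes), or 12 and 16 with total UMIs alone (84.8% against 73.7%). Gnaz, a G protein subunit, was among the higher (7.18, SE 0.45, adjusted p = 2.05e-13). Ptger3, a prostaglandin receptor, was lower in islet than acinar cells (-5.21, SE 0.31, adjusted p = 1.87e-10).

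Between rat groups the question was whether age or the diet moved a receptor within 1 islet class. There were 11 pairs of a receptor and a class with enough UMIs, and 0 of 11 were called in old against young, in HFHF-old against old and in HFHF-old against young rats. edgeR gave 0 of 11 with an unadjusted p under 0.05 in each comparison (lowest 0.114, 0.116 and 0.0690), and DESeq2 also called 0. Few genes of any kind were called: in old against young rats 0.0155% in alpha, 0% in beta and 0.247% in PP cells, in HFHF-old against old rats 0.0464%, 0.0265% and 0.256%, and in HFHF-old against young rats 0.108%, 0.0177% and 0.11%. In the last 2 comparisons the single HFHF-old rat is assumed to vary like the others. Without scaling factors the median gene in beta cells moved by 0.19 in old against young rats, 0.88 in HFHF-old against old and 1.00 in HFHF-old against young, and in PP cells by -0.19, 0.47 and 0.24.

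**Figure D4:**
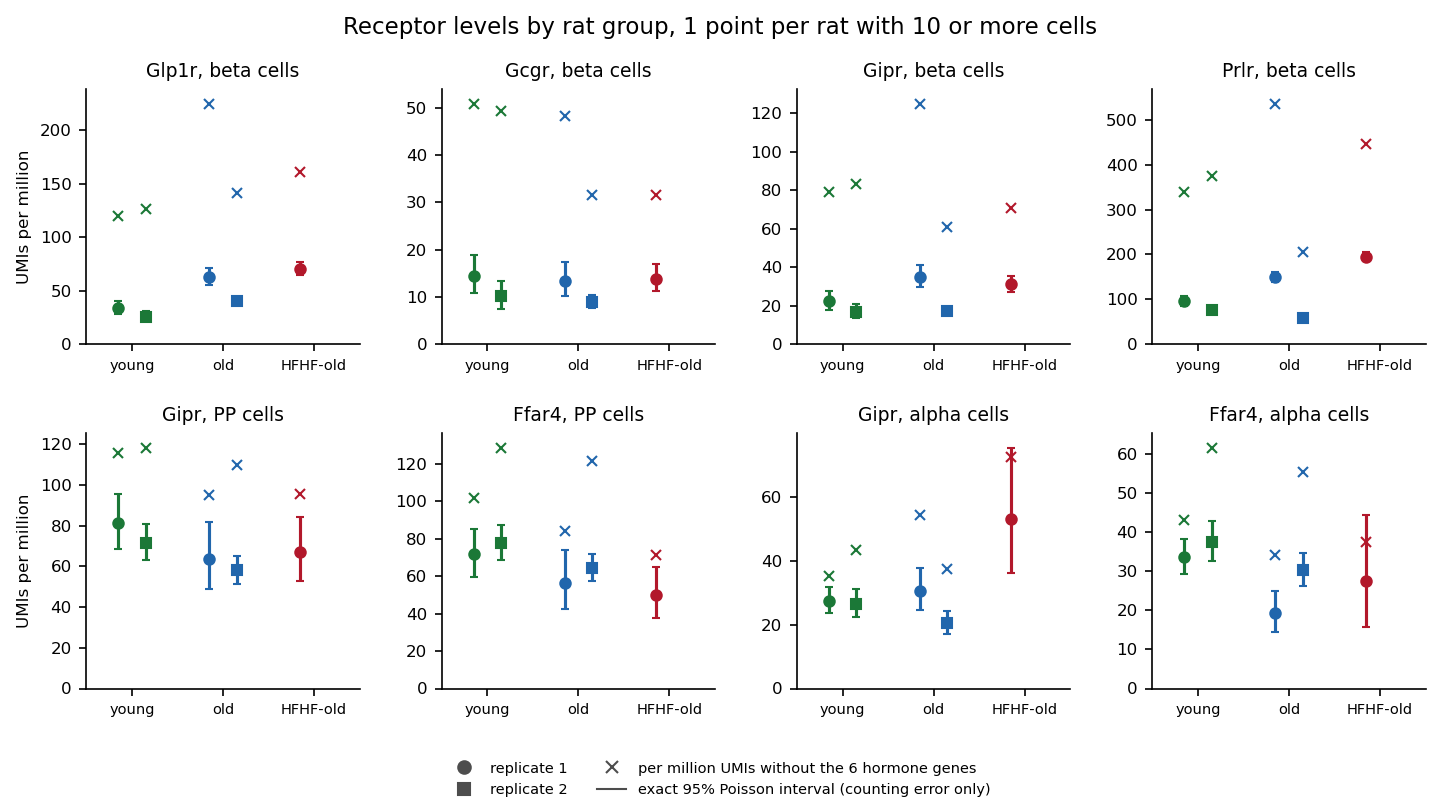
Receptor levels by rat group in 8 pairs of receptor and class, in CPM on the vertical axes, with 1 point per rat, Poisson 95% intervals for counting error, and crosses for CPM of non-hormone UMIs. Glp1r and Prlr in beta cells are highest in HFHF-old replicate 1 per total UMIs, and per non-hormone UMIs they are not.

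Glp1r in beta cells averaged 29.7 ± 5.67 CPM in young rats (SD, n = 2) and 51.5 ± 16.0 in old rats (n = 2), and was 70.5 in the HFHF-old rat. Per non-hormone UMIs the 5 rats gave 119 and 126, 225 and 141, and 161, and the HFHF-old value then lay between the old values. The fitted log2 difference was 0.59 for old against young (95% interval -0.18 to 1.37), 0.21 for HFHF-old against young (-0.72 to 1.15) and -0.38 for HFHF-old against old (-1.33 to 0.57), the last becoming 0.46 without scaling factors and HFHF-old against young 1.25 (adjusted p = 0.139). Without the shallow endocrine cluster, whose share of beta cells differed between rats as given above, the 3 differences were 0.48, 0.060 and -0.42.

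Prlr in beta cells averaged 86.3 ± 13.8 in young and 104 ± 64.7 in old rats (SD, n = 2 each) and was 195 in the HFHF-old rat. The old rats spanned 58.3 to 150, so the spread within the old group was wider than the gap between the young and old means. Fitted differences were 0.06 (95% interval -1.01 to 1.12), 0.14 (-1.16 to 1.44) and 0.09 (-1.21 to 1.39) for old against young, HFHF-old against young and HFHF-old against old. Without scaling factors the last 2 became 1.18 and 0.91 (adjusted p = 0.173 and 0.313). Without the shallow endocrine cluster the 3 were 0.066, 0.032 and -0.034. Per non-hormone UMIs the values were 339 and 375 in young rats, 537 and 205 in old rats and 446 in the HFHF-old rat.

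Gcgr in beta cells averaged 12.2 ± 3.05 in young and 11.2 ± 3.19 in old rats (SD, n = 2 each) and was 13.8 in the HFHF-old rat. Fitted differences were -0.32 (95% interval -1.08 to 0.44), -0.84 (-1.79 to 0.11) and -0.52 (-1.46 to 0.41) in the same order, and the 2 with the HFHF-old rat became 0.18 and 0.32 without scaling factors. Gipr in PP cells averaged 76.5 ± 6.94 in young and 61.0 ± 4.15 in old rats and was 67.2 in the HFHF-old rat. The old values of 63.9 and 58 lay under the young values of 81.4 and 71.6, with a fitted difference of -0.13 (95% interval -0.88 to 0.62) that did not pass the test, and -0.47 (-1.41 to 0.48) and -0.34 (-1.28 to 0.61) for HFHF-old against young and against old, the last becoming 0.14 without scaling factors. Ffar4 in PP cells averaged 74.8 ± 4.26 and 60.4 ± 5.45 (SD, n = 2 each) and was 50.2 in the HFHF-old rat, with fitted differences of -0.10 (95% interval -0.90 to 0.71), -0.87 (-1.91 to 0.16) and -0.78 (-1.82 to 0.26). All these intervals span 0, and the narrowest interval over all pairs in old against young rats was 1.47 log2 units wide. Of the 88 listed pathway genes only those that passed the filter on low counts were tested between rat groups, and none of these was called. From the lists of 39 receptors and 7 ligands, 24 and 4 were tested in alpha, 19 and 3 in beta and 17 and 1 in PP cells. From the lists of second messengers and prolactin signalling, 30 and 8 identifiers were tested in alpha, 30 and 7 in beta and 29 and 7 in PP cells.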

How the data were processed

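Single-cell 3' RNA libraries (10x Genomics v3.1) of 6 rat pancreases were deposited as 1 matrix of UMI counts per rat. Per the file headers the authors made these counts with Cell Ranger 5.0.0, and per the labels on the rat build Rnor_6.0, as whole numbers per gene and barcode with no normalization. The columns were used as deposited, and no doublets were called or removed.

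Barcodes with under 200 genes, over 25% mitochondrial UMIs or in the top 1% of gene number were left out, which kept 75201 of 78024. Cells were clustered with scanpy 1.11.5 (2000 variable genes, 10 principal components, Leiden resolution 1), and clusters were named "-like" from marker lists. The T, NK, B, macrophage, dendritic, neutrophil and mast clusters were pooled as immune. Those whose leading genes were of mixed classes are called only immune. 3 clusters, one of them led by hormone genes and almost all from 1 young rat, stayed unnamed and entered no class. Endocrine cells with tied hormones (17) were left out. Counts were summed per rat and class where at least 10 cells were present, and fitted over all genes with the edgeR 4.0.16 quasi-likelihood test with TMM, with rat as a block between classes and no covariate between rat groups. P-values were adjusted by Benjamini-Hochberg over all genes of a comparison. A call needed an adjusted p under 0.05 and a difference over 1.5-fold. Standard errors were taken from the fold and its F statistic, so their 95% intervals are approximate. The rats are separate animals. Between rat groups the p-values rest on the spread between rats, and the HFHF-old group, with 1 rat, has no spread of its own. Between classes, with rat as a block, they rest on how the class difference varies from rat to rat. Both use estimates of spread that are shared in part over genes. Shares of cells with a UMI were given as counted and after thinning each cell to 2000 UMIs.

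Alternatives were DESeq2 1.42.0, RLE scaling, the older quasi-likelihood fit, no filter on low counts, a minimum of 20 cells and Leiden resolution 2. Others were no filter on the top 1% of barcodes, the other choice of block, and leaving out each rat. Islet cells were also limited to those with 1 hormone at least 4 times the next and no Ptprc UMI. In another alternative, cells with at least 10% hormone UMIs were taken in place of clusters. Library sizes without the 6 hormone genes, no scaling factors, and the deeper endocrine cluster alone were chosen after seeing the data. The members and the lists were chosen with earlier results of these data known. The genes named are the 7 members and, of each list and comparison between classes, up to 2 called genes with the largest difference, and for likeness 3 genes per receptor among those with a mean of at least 5 CPM. The fits were also run on simulated counts, with changes placed only in genes of higher expected counts. That run does not cover receptors with few UMIs in a class or comparisons with the single HFHF-old rat.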

Additional observations from a re-analysis of the deposited data

Results flagged for a closer look

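Some clusters that belong to none of the classes compared held receptor UMIs above 5 CPM with at least 50 UMIs, and they are given as values. Prlr stood at 66.6 CPM in a fibroblast-like cluster with Mgp and C7 among its leading genes (2310 cells, 1354 UMIs, 18.7 to 184 over 6 rats), at 16.6 in a cluster led by Wfdc21, which had fibroblast markers but leading genes of more than 1 class (6.12 to 32.9), and at 9.16 in a fibroblast-like cluster led by Gfpt2 (3.11 to 28.4). It stood at 50.6 in an unnamed cluster led by Prap1 and Ctsj that came from old replicate 2 alone (78 UMIs in 1829 cells, median depth 706 UMIs). In an unnamed cluster led by Pyy, Ins1 and Hbb, 98.8% of which came from young replicate 2 and 26.6% of whose UMIs were hormone RNA, Ffar4 stood at 18.6, Gipr at 10.3 and Prlr at 6.06 CPM. Ffar4 stood at 8.56 in an unnamed cluster led by Il1rl1, Thsd7b and Adam12 (139 UMIs, 5.29 to 10.2 over 6 rats). Whether these UMIs come from the named cells, from doublets or from free RNA was not tested.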

How the results depend on the processing

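Between islet classes 19 receptor calls were made, and the other settings gave 16 to 22, apart from 12 when islet cells were taken by hormone share. Between islet and other classes there were 15 calls (14 to 18), and between rat groups 0 under every setting run. Of 997 values over 53 single results and 20 settings, 938 kept their direction and side of the threshold, 23 were no longer called, 5 were newly called and 31 changed sign, for which the cause was not tested. Gcgr in delta against alpha and against PP cells (5.08 and 6.17) became -3.39 and -2.20 by hormone share and -2.83 and -1.79 with at least 20 cells, and leaving out a rat gave -3.17 to 6.41 and -2.14 to 7.56. Without scaling factors Gipr in beta against alpha cells was -0.31, Prlr and Glp1r in delta against beta cells 0.10 and 0.71, Gcgr and Glp1r in HFHF-old against old beta cells 0.32 and 0.46, Gipr in HFHF-old against old PP cells 0.14 and Gcgr in HFHF-old against young beta cells 0.18. Of all 78 receptor results 16 changed sign there, the others being Gipr in delta against beta cells (from -0.65 to 1.04, adjusted p = 0.0399, then called), Gcgr in delta against beta cells (0.24), Gipr in beta cells of HFHF-old against old (0.26) and young rats (0.66), and, in alpha cells, Gipr and Prlr in old against young (-0.089 and -0.056), Ffar4 and Prlr in HFHF-old against old (0.14 and 0.42) and Prlr in HFHF-old against young rats (0.37). By hormone share, old against young gave 0.35 for Gcgr in beta and 0.010 for Gipr in PP cells, and HFHF-old against young 0.14 for Gcgr. Prlr in old against young beta cells (0.06) became -0.011 without the filter on the top 1% of barcodes. In cells of 1 clear hormone and no Ptprc UMI it became -0.10. There Ffar4 in old against young PP cells became 0.014 and Prlr in HFHF-old against young beta cells -0.090. Prlr in HFHF-old against old beta cells was -0.034 in the deeper cluster. Leaving out a rat moved Ffar4 in delta against alpha cells from -0.071 to 0.76 and, for old against young, Prlr in beta from -0.69 to 0.55, Gipr in PP from -0.35 to 0.031 and Ffar4 in PP from -0.51 to 0.19, and Prlr in HFHF-old against old beta cells from -0.41 to 0.84.

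Replicate numbers are names only here, and samples of equal number deviated together weakly (correlations of 0.16, 0.20 and 0.28 in alpha, beta and PP cells, 2 pairs). With the number as a block between rat groups 0 receptors were called, and Prlr in beta cells became -0.069, -0.085 and -0.15 for old against young, HFHF-old against old and HFHF-old against young. Without the rat as a block, there were 16 and 14 calls between islet classes and against the other classes. The few delta cells, 1 HFHF-old rat and the counts of Ffar1 and Ghsr limit what could be detected.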
